A study of Mus musculus with 9 samples.

Results

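RAW264.7 cells carrying a hairpin against Nfat5 were compared directly with RAW264.7 cells carrying a decoy for the NFAT5 protein. The comparison used the 3 arrays titled NFAT5 KD and the 3 arrays titled NFAT5-decoy, 6 of the 9 arrays of the series, chosen by title. The array has 45281 probes, 34885 of them with a single gene symbol. A filter on dim probes left 22620, with or without a single symbol. These gave 15992 tested features, 12135 of them genes, each at its brightest probe. RAW264.7 is a mouse macrophage line, grown here in alpha-MEM with serum and antibiotics. The knock-down cells expressed a short hairpin RNA that targets the Nfat5 transcript. The decoy cells were transfected with oligonucleotides that contain the consensus binding sequence of NFAT5, and the submitters' design text describes both modifications as stable. The other 3 arrays are from untreated control cells, and their levels are given only for orientation. No group of the series is labelled with an unrelated hairpin or oligonucleotide, and the labels name neither clones nor pools of transfected cells. Nor do they state separate cultures for the 3 samples within a group. The p-values therefore describe only how far these samples spread, and that spread may be technical.

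NFAT5 is a Rel-family transcription factor that is known for driving osmoprotective genes under high salt, such as osmolyte transporters and aldose reductase, and in macrophages for a part in inflammatory gene expression. A hairpin lowers the amount of transcript, whereas a decoy leaves the gene in place and offers the protein an alternative binding site. The submitters used both to find transcripts controlled by NFAT5, and the direct comparison asks where cells under the 2 interventions differ.

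Defining macrophage genes were present in both groups. Of 31 macrophage markers, 16 were above background on all 6 arrays, among them Csf1r, Cd14, Lyz2, Tyrobp and Spi1, and 10 were above background on none, among them Itgam, Mrc1, Mertk and the C1q chains. The summed level of the list was 17.47 to 17.66 (log2) in knock-down cells against 17.70 to 17.72 in decoy cells. Of the markers of other cell types, only Acta2, Cd8b1 and S100a8 were above background on all 6 arrays. None of the 6 arrays had signal above background for 11 of 12 fibroblast, 10 of 12 T and NK cell, 7 of 7 B cell, 12 of 13 neutrophil and mast cell and 8 of 8 epithelial markers. Raw signal was unequal between arrays, with an upper quartile of 257, 241 and 209 units on the knock-down arrays, replicates 1 to 3, and 237, 236 and 214 on those of the decoy. The share of probes above background was 27.1%, 23.6% and 21.5% in the knock-down group, and 26.9%, 25.5% and 24.6% in the decoy group. On the control arrays, replicates 1 to 3, the upper quartile was 319, 336 and 330 units and the share above background 34.1%, 34.5% and 34.9%. What these inequalities contribute to the differences and to the control levels below was not tested. Knock-down replicate 1 lay apart from the others of its group on the first principal component (40.4% of the variance over the 6 arrays). It was at -0.225 there, against -22.4 and -32.0 for knock-down replicates 2 and 3 and 11.6 to 24.5 for the decoy arrays. Its levels correlated more with decoy replicates 1 and 2 (r = 0.988 each, across features) than with knock-down replicates 2 and 3 (r = 0.984 and 0.983). On the second component (26.8%) knock-down replicate 2 and decoy replicate 3 lay together at 22.5 and 24.5, and the other 4 arrays at -18.8 to -8.77. Knock-down replicate 2 correlated about as much with decoy replicate 3 (r = 0.983) as with its own group's replicate 3 (r = 0.982).

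Nfat5 itself was lower in the knock-down on its brightest probe but did not pass the test. That probe read 10.38, 10.50 and 10.43 (normalized log2 level, replicates 1 to 3) in knock-down cells against 11.07, 10.90 and 10.97 in decoy cells, beside 11.58, 11.36 and 11.46 in control cells. The 3 groups did not overlap, with the knock-down lowest and the decoy between it and control. The difference of knock-down minus decoy was -0.54 in log2 (SE 0.167, 95% interval -0.90 to -0.19, n = 3 and 3). This is 1.46-fold, with an adjusted p of 0.148 (limma, Benjamini-Hochberg over all features tested). The raw signal behind it was 1428, 1051 and 734 units in knock-down cells against 2083, 1731 and 1430 in decoy cells, where the highest knock-down array lay just under the lowest decoy array. A second Nfat5 probe, also above background on all 9 arrays, read 9.09, 9.24 and 9.34 in knock-down cells against 9.31, 9.24 and 9.36 in decoy cells. Control cells were lower than both there in normalized level, at 8.73, 8.55 and 8.45, the reverse of the order on the brightest probe. In raw signal the second probe read 752, 685 and 625 units in control cells. Decoy cells gave 640, 569 and 509 units and knock-down cells 596, 489 and 390, so control was not below both in raw signal. Knock-down and decoy overlapped (difference -0.08, limma adjusted p = 0.884 over single probes), and the other 2 Nfat5 probes were above background on no array. The difference of the brightest probe was called when the control arrays shared the estimate of the spread (limma adjusted p = 0.0323) and under no other alternative run.

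Across the array, 209 of 15992 features (a gene at its brightest probe, or a probe without a single symbol) differed at an adjusted p below 0.05, which is 1.31%. In the knock-down, 81 features (0.507%) were higher and 128 (0.8%) were lower than in the decoy. Of these, 41 were at least 2-fold higher and 60 at least 2-fold lower, 11 differed by at least 4-fold in either direction, and the smallest called fold was 1.64. The median difference over all features was 0.02 in log2. In each of the 209 called features the 3 arrays of a group did not overlap those of the other group, as in 3055 features (19.1%) of all tested. In raw signal, before any normalization, 161 of the 209 did not overlap. The share in raw signal over all features was not computed, and the 209 were selected for their difference. The raw count is therefore a description only. With single probes as the unit, 185 of 22620 probes (0.818%) were called. The number of called features depended on the arrays and on the scaling. It was 318 without knock-down replicate 1, 66 without knock-down replicate 3, 63 without decoy replicate 1 and 75 without decoy replicate 2. With arrays scaled to a common median instead of quantiles, 6 features were called, all 209 kept their direction and the median over all features was -0.08. The 6 were Itgb7, Scn11a, Tmem176b, Gpr176 and the unnamed probes ILMN_2476405 and ILMN_2625279. A lower level can reflect fewer cells with the transcript or less of it per cell, which cannot be told apart in bulk RNA.

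**Figure D1:**
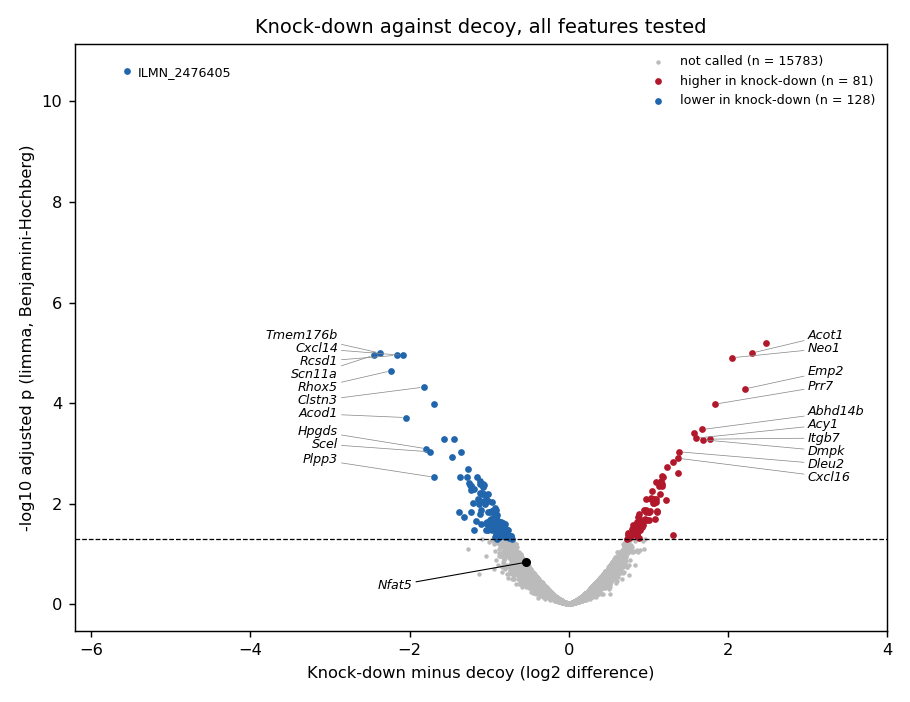
Each point is a feature, with the knock-down minus decoy difference in log2 on the x axis and the negative log10 of the limma adjusted p on the y axis. The 81 features called higher are red, the 128 called lower are blue, the dashed line marks an adjusted p of 0.05, and Nfat5 (black) lies below it at -0.54.

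The largest difference of all belonged to a probe to which the annotation gives no gene. ILMN_2476405 read 7.14, 7.03 and 6.89 in knock-down cells against 12.59, 12.49 and 12.63 in decoy cells, with 7.01, 7.06 and 7.07 in control cells. The decoy arrays stood far above the other 6, which shared a low level. Since no knock-down array was above background, the decoy level is given as at least 27.3-fold higher (limma adjusted p = 2.44e-11). A second unnamed probe, ILMN_2625279, read 10.76, 11.03 and 11.31 in knock-down cells against 8.50, 8.68 and 8.48 in decoy cells, with 8.35, 8.43 and 8.29 in control cells. Here the knock-down arrays stood apart, by 5.58-fold over the decoy. Both probes are among the 52 called features without a single symbol. The other 157 called features are genes, 69 higher and 88 lower in the knock-down.

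Of the 10 named genes with the largest rises in the knock-down, 3 encode metabolic enzymes. Acot1, a cytosolic thioesterase that splits fatty acyl-CoA, read 9.02, 9.19 and 8.66 in knock-down cells against 6.74, 6.70 and 6.52 in decoy cells. The rise was at least 2.56-fold (difference 2.30, SE 0.186, limma adjusted p = 1.01e-05), with no decoy array above background. That probe passed the filter on dim probes through its 3 knock-down arrays. Without any of them the dimmer Acot1 probe, above background on no array, took its place, with differences of 0.91, 0.84 and 0.80 (limma adjusted p = 0.0444, 0.0769 and 0.155 without knock-down replicates 1, 2 and 3). Whether the probe also detects the closely related genes of the Acot cluster was not tested. Acy1, the aminoacylase that removes the acyl group from N-acylated amino acids, read 11.17, 10.96 and 11.50 against 9.70, 9.78 and 9.35. It was 3.04-fold higher (limma adjusted p = 0.000498), and of its other 2 probes 1 was called in the same direction (1.05 in log2) and the other, with a difference of 0.38, was not. Abhd14b, a hydrolase of the alpha/beta-fold family, read 9.10, 9.66 and 9.71 against 7.77, 7.96 and 7.70, a 3.20-fold difference (limma adjusted p = 0.000336). The other Abhd14b probe, above background on no array, gave 0.16 and was not called. In all 3 genes the lowest knock-down array lay above the highest decoy array, also in raw signal.

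Genes of membrane and adhesion proteins were also among the 10. Emp2, a tetraspan protein that affects the surface display of integrins, read 10.80, 10.52 and 11.08 in knock-down cells against 8.72, 8.90 and 8.15 in decoy cells. Control cells were at 8.50, 8.58 and 8.39, within the range of the decoy arrays. The rise was 4.62-fold (difference 2.21, SE 0.218, limma adjusted p = 5.25e-05). Itgb7, the integrin beta subunit that pairs with the alpha 4 and alpha E chains, read 11.05, 11.67 and 11.76 against 9.40, 9.79 and 9.97, 3.42-fold higher (limma adjusted p = 0.000522). Again the decoy arrays overlapped the control arrays and the knock-down arrays did not. Neo1 encodes neogenin, a receptor for netrins and repulsive guidance molecules. It read 9.81, 9.94 and 9.49 against 7.72, 7.66 and 7.70, a 4.14-fold difference (limma adjusted p = 1.26e-05) that its other 2 probes, neither above background on any array, did not show (-0.09 and -0.05). With the mean over its probes Neo1 was not called. Among 21 listed genes for integrins and cell adhesion Emp2 and Itgb7 were the 2 called, beside 0.507% of all features called higher. The median of the list was 0.00. Icam4, an adhesion molecule outside the list, was called 2.05-fold higher.

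Prr7, a proline-rich membrane adaptor, Dmpk, the myotonic dystrophy protein kinase, Dleu2, a long non-coding RNA that hosts a microRNA cluster, and Cxcl16, a membrane-bound chemokine and scavenger receptor, completed the 10. Prr7 read 8.35, 8.18 and 8.74 in knock-down cells against 6.41, 6.56 and 6.79 in decoy cells, a rise of at least 1.77-fold (limma adjusted p = 0.000105) with no decoy array above background. Dmpk read 12.04, 12.52 and 12.18 against 10.38, 10.34 and 10.98, a 3.20-fold difference (limma adjusted p = 0.000537). Dmpk arrays of the decoy overlapped control (10.78, 10.67 and 10.68). Dleu2 read 8.64, 8.80 and 9.15 against 7.53, 7.52 and 7.39, 2.62-fold higher (limma adjusted p = 0.000933). Cxcl16 read 11.58, 11.51 and 11.85 against 10.18, 10.10 and 10.55, 2.59-fold higher (limma adjusted p = 0.00125). The other Cxcl16 probe, above background on 1 of the 6 arrays, gave 0.41 and was not called. All 4 were called whichever of the 6 arrays was left out.

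The largest fall in a named gene was that of Scn11a, a voltage-gated sodium channel subunit known from sensory neurons. It read 8.66, 8.73 and 9.18 in knock-down cells against 11.41, 11.56 and 10.95 in decoy cells, 5.47-fold lower in the knock-down (difference -2.45, SE 0.207, limma adjusted p = 1.12e-05). Control cells were lower than both, at 7.32, 7.28 and 7.28. Rhox5, an X-linked homeobox gene, read 8.79, 8.14 and 8.29 against 10.67, 10.85 and 10.40, a 4.70-fold difference (limma adjusted p = 2.28e-05), with control between them at 10.09, 10.07 and 10.18. Scel, which encodes sciellin of the cornified envelope, read 6.25, 6.43 and 7.25 against 8.46, 8.39 and 8.30. The difference was at least 1.5-fold (limma adjusted p = 0.000933), since no knock-down array was above background. Knock-down and control (6.85, 6.64 and 6.65) overlapped for Scel. Clstn3, a calsyntenin known from synapses, read 8.10, 7.79 and 8.12 against 9.73, 9.98 and 9.77 (3.54-fold lower, limma adjusted p = 4.82e-05). The other Clstn3 probe, above background on no array, gave -0.09.

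Genes with known roles in macrophages and other leukocytes made up further large falls. Tmem176b, an intracellular membrane protein studied in dendritic cells, read 7.87, 7.58 and 8.18 in knock-down cells against 10.38, 10.31 and 10.06 in decoy cells. Decoy and control (10.30, 10.27 and 10.32) overlapped, and the fall to the knock-down level was 5.19-fold (difference -2.38, SE 0.193, limma adjusted p = 1.01e-05). Acod1, the enzyme that makes itaconate in activated macrophages, read 9.51, 8.87 and 9.23 against 11.42, 11.55 and 10.76, 4.13-fold lower (limma adjusted p = 0.000194). Its second probe was called in the same direction (-1.91 in log2). Hpgds, the haematopoietic prostaglandin D synthase, read 7.21, 6.89 and 7.85 against 8.95, 9.38 and 8.98, a fall of at least 2.47-fold (limma adjusted p = 0.000811). No knock-down array was above background for Hpgds, and its second probe was called as well (-1.57). Hpgds was the 1 called gene of 9 for eicosanoid synthesis, beside 1.31% of all features called. Alox5, with a difference of -0.72, did not pass. In the list of 9, 4 differences were positive and 5 negative, with a median of -0.07.

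Rcsd1, which encodes a protein that binds the actin-capping protein CapZ, read 8.07, 7.89 and 7.57 in knock-down cells against 10.17, 9.91 and 9.94 in decoy cells (4.48-fold lower, limma adjusted p = 1.12e-05). Control cells were above both at 10.60, 10.65 and 10.66. Plpp3, a phosphatase of lipid phosphates such as lysophosphatidic acid, read 7.62, 6.94 and 7.44 against 9.23, 9.44 and 8.40 (3.23-fold lower, limma adjusted p = 0.00299). Control cells were below both at 6.89, 6.75 and 6.67. The other Plpp3 probe, above background on no array, gave -0.19 and was not called. These 9 falls and that of Cxcl14, the remaining member of the 10, were each called whichever of the 6 arrays was left out, and none overlapped in raw signal.

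**Figure D2:**
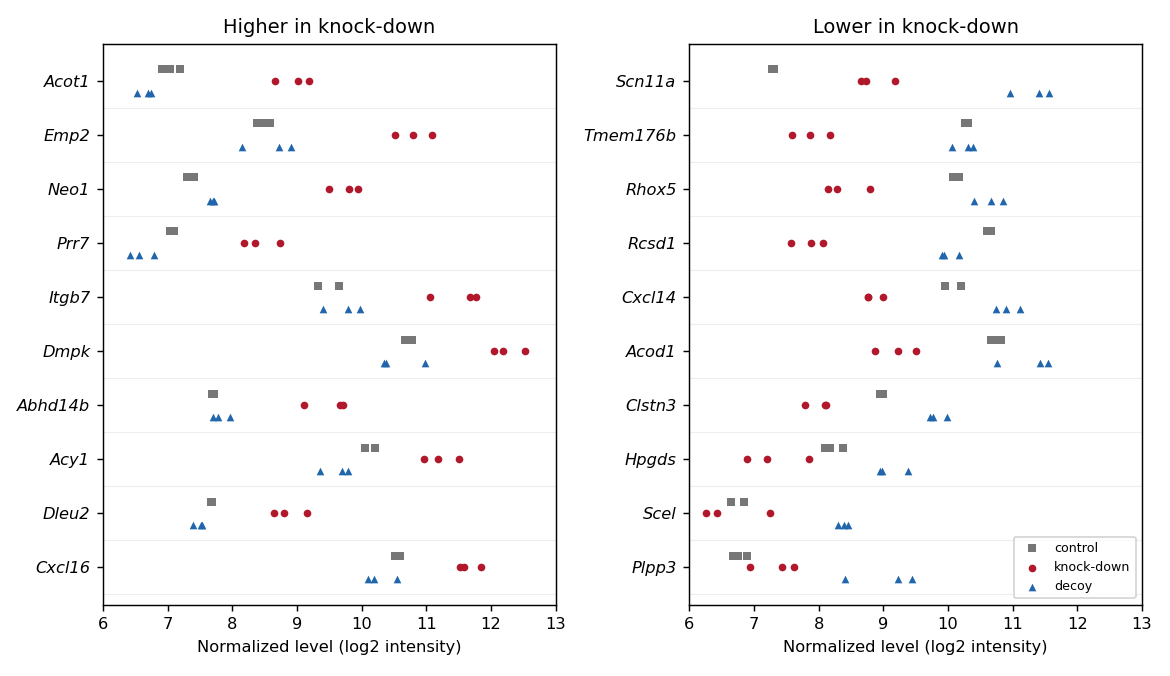
Normalized level (log2 intensity, x axis) of the 10 named genes with the largest rises (left) and the 10 with the largest falls (right) in the knock-down, with a point for each array. Control arrays are grey squares, knock-down arrays red circles and decoy arrays blue triangles; for each gene the 3 red and 3 blue points do not overlap.

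Promoter sequence is shown for 4 of these genes because both interventions act on a factor that binds DNA. The motif searched was TGGAAA, the core of the NFAT5 site, on either strand, in the 250 bases before and 50 after the start site (RefSeq, build GRCm38.p6). It was present in 21.4% of 32851 promoters in the table and in 20.5% of 9855 tested genes. Among called genes it was in 13 of 64 promoters (20.3%) of genes higher in knock-down cells against 17 of 71 (23.9%) of genes lower in it. These shares lie close to that of all promoters. Of Nfat5 and the 20 genes with the largest differences, 19 had an entry, and 5 promoters held the motif. The 4 with the largest differences are printed 5′ to 3′ on the gene's strand, with the match in capitals. Tmem176b (chr6:48841325-48841624, minus strand) holds it on the reverse strand, as TTTCCA, at -27 from the start site. Emp2 (chr16:10313919-10314218, minus strand) holds it at -203, Acod1 (chr14:103046762-103047061, plus strand) at -86 and Plpp3 (chr4:105157097-105157396, plus strand) at -152.
Tmem176b: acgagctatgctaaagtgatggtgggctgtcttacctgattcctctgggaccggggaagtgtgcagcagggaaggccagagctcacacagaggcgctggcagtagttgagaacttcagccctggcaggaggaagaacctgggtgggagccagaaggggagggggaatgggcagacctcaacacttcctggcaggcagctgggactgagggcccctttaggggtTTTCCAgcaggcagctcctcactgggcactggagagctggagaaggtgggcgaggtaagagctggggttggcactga
Emp2: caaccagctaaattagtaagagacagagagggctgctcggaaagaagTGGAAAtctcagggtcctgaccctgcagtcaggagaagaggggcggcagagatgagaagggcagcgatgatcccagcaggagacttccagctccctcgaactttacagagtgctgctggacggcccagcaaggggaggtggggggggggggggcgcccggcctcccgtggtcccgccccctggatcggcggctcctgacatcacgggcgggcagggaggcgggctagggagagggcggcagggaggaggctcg
Acod1: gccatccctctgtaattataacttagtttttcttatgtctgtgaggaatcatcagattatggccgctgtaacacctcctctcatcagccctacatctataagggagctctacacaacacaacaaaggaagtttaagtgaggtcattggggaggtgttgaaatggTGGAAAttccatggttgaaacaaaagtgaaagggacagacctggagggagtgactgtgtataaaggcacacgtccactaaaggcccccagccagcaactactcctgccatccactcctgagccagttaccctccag
Plpp3: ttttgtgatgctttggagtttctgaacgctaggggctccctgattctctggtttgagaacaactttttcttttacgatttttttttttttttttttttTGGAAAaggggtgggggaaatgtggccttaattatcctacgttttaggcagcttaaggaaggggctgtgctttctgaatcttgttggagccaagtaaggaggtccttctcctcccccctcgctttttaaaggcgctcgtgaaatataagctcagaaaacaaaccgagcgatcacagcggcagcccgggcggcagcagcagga
Emp2 was the 1 gene of these 4 that was higher in the knock-down. A match is a description of the letters and not a binding site, and NFAT5 binding was not measured here.

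The known targets of NFAT5 did not separate the groups by the test. Of 13 osmoprotective targets on the array, 7 were measured and none passed, with a median difference of -0.32 beside 0.02 over all features. Akr1b8, an aldo-keto reductase, had a difference of -0.75, Sgk1, the serum- and glucocorticoid-regulated kinase, -0.57, and Slc6a12, the betaine transporter, -0.54. By contrast the taurine transporter Slc6a6 stood at 0.14 and the amino acid transporter Slc38a2 at 0.18. With arrays scaled to a common median all 7 were negative, with a median of -0.60. Of the inflammatory targets 4 were measured and none passed, with Tnf at -0.38, Il6 at -0.12, Nos2 at -0.10 and the lymphangiogenic factor Vegfc at 0.52. The calcium-regulated relatives of NFAT5 and the phosphatase calcineurin that acts on them were measured by 12 genes including Nfat5, none called. Nfatc1 was at 0.57, Nfatc2 at -0.03 and Nfatc3 at 0.02. Interferon-stimulated genes (39 measured, median -0.03), Toll-like receptor and NF-kB genes (21, median 0.00) and antigen presentation genes (16, median 0.12) also had no member that passed.

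Chemokine genes were called in both directions. Of 12 listed chemokine and chemokine receptor genes measured, Cxcl16 rose and Cxcl14, Ccl3 and Cx3cr1 fell, beside 1.31% of all features called, and the median was -0.18. Cxcr3, a chemokine receptor outside the list, was called 2.14-fold higher in the knock-down. Cxcl14, a chemokine that attracts monocytes, read 8.99, 8.76 and 8.76 in knock-down cells against 11.11, 10.75 and 10.90 in decoy cells (4.24-fold lower, limma adjusted p = 1.12e-05). Its second probe fell with it (-1.23). Control cells lay between, at 9.95, 9.95 and 10.21. Ccl3, an inflammatory chemokine of macrophages, read 13.53, 12.31 and 12.42 against 14.10, 14.09 and 14.02, 2.50-fold lower (limma adjusted p = 0.0184). Cx3cr1, the fractalkine receptor, read 12.33, 12.02 and 11.84 against 13.22, 13.16 and 12.75, 1.97-fold lower (limma adjusted p = 0.0204). In raw signal the arrays of both groups overlapped for Ccl3 and Cx3cr1. Both calls were lost without knock-down replicate 3 (adjusted p = 0.155 and 0.124), decoy replicate 1 (0.0949 and 0.159) or decoy replicate 2 (0.0927 and 0.127), and that of Ccl3 also without knock-down replicate 2 (0.0543). Of 22 cytokine genes, only Il1rn, the antagonist of the interleukin-1 receptor, passed. It read 8.14, 8.47 and 8.16 against 9.16, 9.32 and 9.56, 2.13-fold lower, and both groups lay above control (7.35, 7.41 and 7.35). The other Il1rn probe, above background on 5 arrays, gave -0.70 and did not pass. Without knock-down replicate 3 the adjusted p of Il1rn was 0.0532.

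Single macrophage identity genes were called in both directions. Of 23 measured, Axl rose, Fcgr1 and Cx3cr1 fell, 14 had a negative difference and the median was -0.17. Over all features 1.31% were called and 7580 of 15992 had a negative difference. Axl, a receptor tyrosine kinase that recognises dying cells, read 9.92, 9.61 and 10.29 in knock-down cells against 8.68, 8.67 and 8.38 in decoy cells, a 2.58-fold difference (limma adjusted p = 0.00249). The knock-down overlapped control (9.98, 9.89 and 10.01) and the decoy did not. The other Axl probe, above background on no array, gave 0.29, and with the mean of both Axl was not called. Fcgr1, the high-affinity IgG receptor, read 7.28, 7.68 and 7.06 against 8.42, 8.32 and 8.68, a fall of at least 1.59-fold (limma adjusted p = 0.00823, and 0.0654 without knock-down replicate 3). The main growth factor receptor of the lineage, Csf1r, had a difference of -0.42, and Spi1, its defining transcription factor, of -0.19, neither of which passed.

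Mitochondrially encoded and antioxidant genes were lower in the knock-down where they were called. All 7 measured genes of mitochondrial DNA had a negative difference, with a median of -0.52, and ND1 and ATP6 passed. Over all features 7580 of 15992 had a negative difference and 0.8% were called lower. ND1, a subunit of complex I, read 11.82, 11.29 and 11.26 in knock-down cells against 12.63, 12.37 and 12.74 in decoy cells, 2.17-fold lower (limma adjusted p = 0.0089). Control cells were at 14.35, 14.41 and 14.70, above both. ATP6, a subunit of ATP synthase, was 1.76-fold lower (limma adjusted p = 0.045), and without each array in turn its adjusted p was between 0.0623 and 0.268. The ND1 call was lost without knock-down replicate 3 (0.0748) and decoy replicate 1 (0.0689). COX2, with a difference of -0.91, did not pass. Among 54 nuclear genes of oxidative phosphorylation Atp5a1 (-0.73, 1.66-fold) was the 1 called, 38 had a negative difference and the median was -0.19. The Atp5a1 call was lost when any of the 6 arrays was left out (adjusted p 0.0639 to 0.217) and with the mean over its probes.

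NRF2 target genes, which protect against oxidants, showed 3 calls of 18, all lower in the knock-down, and 16 negative differences with a median of -0.23. Over all features 0.8% were called lower and 7580 of 15992 had a negative difference. Ftl1, the ferritin light chain, was 1.87-fold lower (limma adjusted p = 0.0215), Prdx1, a peroxiredoxin, 1.72-fold (0.0443) and Slc7a11, the cystine transporter, 1.70-fold (0.0342). Ftl1 overlapped between the groups in raw signal and was not called without knock-down replicate 2 (adjusted p = 0.0543) or 3 (0.116), or without decoy replicate 1 (0.171) or 2 (0.0874). Another Slc7a11 probe, above background on all 6 arrays, gave -0.18, and with the mean over probes Slc7a11 (-0.17, adjusted p = 0.666), Ftl1 and Prdx1 were not called. Slc7a11 was lost without each of the 6 arrays (adjusted p 0.0612 to 0.194), and Prdx1 without each but decoy replicate 3 (0.0501 to 0.27). Among 23 genes of the ATF4 and unfolded protein response 20 had negative differences (median -0.21) and Slc7a11, which is on both lists, was the 1 called. Of 15 listed heat shock genes, the chaperonin Hspe1 was called (-0.85, 1.80-fold, limma adjusted p = 0.0254), and was lost without knock-down replicate 3 (0.108) or any decoy array (0.0552 to 0.191). The heat shock list had 6 positive and 9 negative differences, with a median of -0.12. Hspb6, a heat shock gene outside the list, was called 1.67-fold higher in the knock-down (limma adjusted p = 0.0386). No cytosolic ribosomal protein gene of the 42 listed and measured passed (median -0.06). Rpl3l, outside the list, was called 1.89-fold higher in the knock-down (limma adjusted p = 0.029).

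Genes of cell death and division gave few calls. Of 14 pro-apoptotic genes, the death receptor Fas and the BH3-only protein Bcl2l11 rose, beside 0.507% of all features called higher. The median of the list was 0.19, and -0.04 with arrays scaled to a common median. Of 14 anti-apoptotic genes none passed (median 0.04). Fas read 9.52, 9.84 and 10.18 in knock-down cells against 8.78, 8.93 and 8.80 in decoy cells, a 2.01-fold difference (limma adjusted p = 0.0149). Another Fas probe with signal on all 6 arrays gave 0.49 and did not pass. Bcl2l11 read 9.30, 9.33 and 9.82 against 8.59, 8.61 and 8.51, 1.89-fold higher (limma adjusted p = 0.023). Its 3 other probes gave 0.59, 0.12 and -0.30, none called, and with the mean over probes Bcl2l11 (0.33, adjusted p = 0.339) and Fas were not called. Both were lost without knock-down replicate 3 (adjusted p = 0.092 for Fas and 0.108 for Bcl2l11), decoy replicate 1 (0.101 and 0.116) or decoy replicate 2 (0.0695 and 0.107). Pcna, the DNA polymerase clamp, was the 1 called of 33 cell cycle genes (-0.82, 1.77-fold lower, limma adjusted p = 0.0242), and was lost without knock-down replicate 1 (0.0507) or 3 (0.092), or without decoy replicate 1 (0.163) or 2 (0.109). Over all features 0.8% were called lower, and the median of the cell cycle list was 0.03.

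In the list of 15 osteoclast differentiation genes, 12 had positive differences, beside 8412 of 15992 features, and the median was 0.27, but only Fos passed. With arrays scaled to a common median 10 were positive and the median was 0.05. Over all features 1.31% were called, the share to set beside each count of calls in this paragraph. Fos, a subunit of the AP-1 factor, was 1.65-fold higher (limma adjusted p = 0.0499), overlapped between groups in raw signal and was lost without each array in turn (0.0751 to 0.239). Hnrnpa1, an RNA-binding protein of splicing, was the 1 called of 29 splicing and RNA-binding genes (-0.92, 1.90-fold lower, limma adjusted p = 0.0322). Its raw signal overlapped, its other probes gave -0.68 and -0.14, and it was lost without knock-down replicate 2 (0.0998) or 3 (0.155), or without decoy replicate 1 (0.194) or 2 (0.124). The splicing list had 13 positive and 16 negative differences, with a median of -0.11. Acot1 was the 1 called of 19 genes of acyl-CoA hydrolysis and fatty acid oxidation (median 0.03), and Slc7a11 of 16 amino acid and solute carriers (median 0.10). Glycolysis genes (17, median -0.06), sterol synthesis and lipid handling genes (21, median 0.04), matrix remodelling genes (16, median 0.09) and lysosomal genes (26, median 0.05) had no member that passed. Neither did the measured markers of fibroblasts (7), T and NK cells (6), B cells (2), neutrophils and mast cells (9) or epithelium (2). Ctsf, a lysosomal protease outside the lysosomal list, was called 2.25-fold higher in the knock-down.

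**Figure D3:**
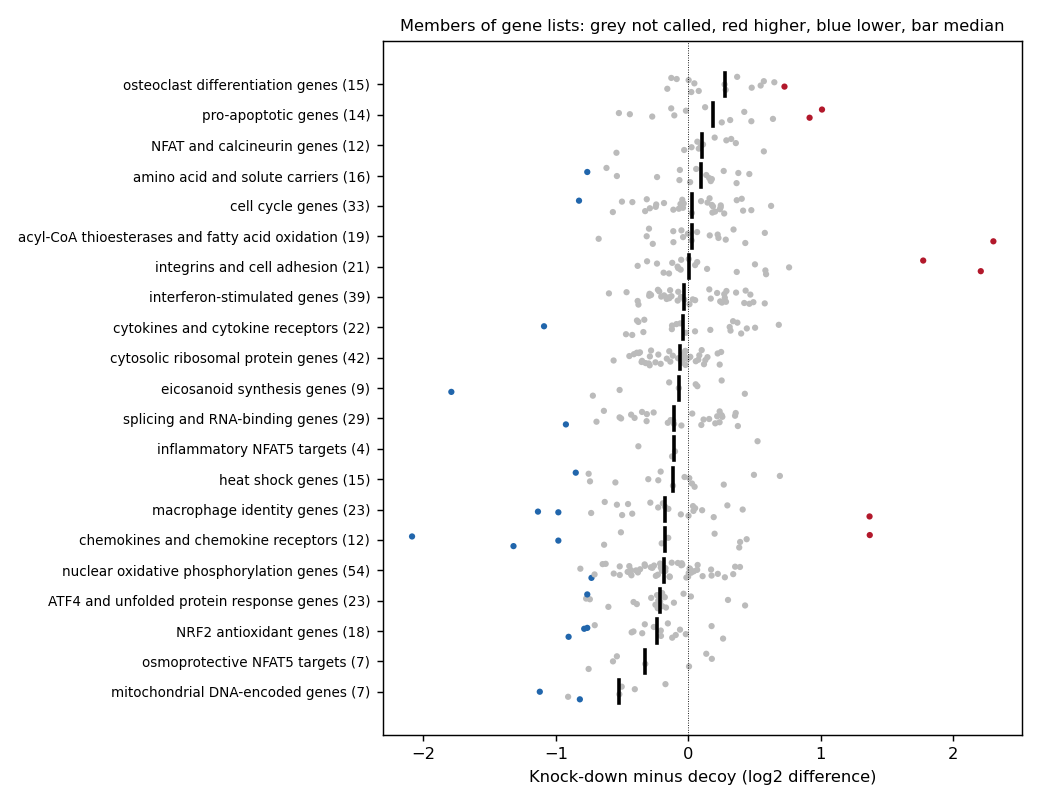
Knock-down minus decoy difference (log2, x axis) of each measured member of the gene lists with a called member, and of 5 further lists, with the number measured in brackets. Red points are called higher, blue points called lower, grey points not called, and the black bar is the list's median; all 7 genes of mitochondrial DNA lie left of 0.

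With arrays scaled to a common median most list medians moved down, as did that of all features, which was -0.08. Those of inflammatory NFAT5 targets and of fibroblast, B cell and epithelial markers moved up, to -0.08, -0.01, -0.27 and 0.06. The median was then -0.31 for glycolysis genes, all 17 of them negative, -0.21 for sterol synthesis and lipid handling, -0.02 for matrix remodelling and -0.10 for lysosomal genes. It was -0.68 for genes of mitochondrial DNA, -0.47 for NRF2 targets, -0.41 for the ATF4 list, -0.39 each for nuclear oxidative phosphorylation and macrophage identity genes, -0.28 for ribosomal protein genes and -0.25 for chemokine genes. The lists for NFAT and calcineurin (-0.03), antigen presentation (-0.02), Toll-like receptors and NF-kB (-0.15), anti-apoptotic genes (-0.16), the cell cycle (-0.20), neutrophil and mast cell markers (-0.04), integrins and adhesion (-0.06), acyl-CoA hydrolysis and fatty acid oxidation (-0.03) and solute carriers (-0.04) turned from positive to negative.

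Genes with more than a single probe allowed a check within the array. Of 4377 genes with at least 2 kept probes, 6 had every probe called in the same direction: Acod1, Cxcl14, Hpgds and Panx1 were lower in the knock-down, and Mustn1 and Syn1 were higher. Panx1, a channel that releases ATP, read 8.86, 8.79 and 8.86 in knock-down cells against 10.17, 9.75 and 9.50 in decoy cells (1.96-fold lower, limma adjusted p = 0.0204), with -1.16 on the second probe. Mustn1, a small nuclear protein of muscle and skeleton, read 8.49, 8.59 and 8.65 against 6.97, 7.81 and 7.61, 2.16-fold higher (limma adjusted p = 0.0146). Syn1, a synapsin of synaptic vesicles, read 8.09, 8.02 and 8.03 against 7.03, 7.07 and 7.39, at least 1.36-fold higher (limma adjusted p = 0.0193). All 3 were lost without knock-down replicate 3 (adjusted p = 0.0966, 0.102 and 0.0754) or decoy replicate 1 (0.171, 0.106 and 0.159), and Panx1 and Syn1 also without decoy replicate 2 (0.0911 and 0.125). The 73 called genes with further kept probes had 105 of them. Of these, 78 differed in the gene's direction and 27 in the opposite direction, 12 were called in the gene's direction and none in the opposite direction. Of the 40 that were above background on at least 3 of 6 arrays, 35 shared the direction.

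Several called genes lay next to each other on the chromosome, in the gene order of RefSeq (GRCm38.p6). Of 12097 pairs of tested neighbours, 8 had both genes called, and in all 8 the direction was shared. They hold 15 of the 155 called genes on nuclear chromosomes (9.68%). Of all 12119 tested genes placed on nuclear chromosomes, 1.28% were called. The share in pairs counts a neighbour on either side, so these shares are not like measures, and clustering was not tested. On chromosome 9 the neighbours Acy1 (1.60), Abhd14a (0.97) and Abhd14b (1.68) all rose, and the next gene, Pcbp4, had a difference of 0.96 that did not pass. On chromosome 7 Dmpk (1.68) adjoins Dmwd (1.17), also called. On chromosome 14 Kctd12 (-1.28) and Acod1 (-2.04) fell, and so did Scel (-1.74), with Mycbp2 (-0.13, not called) between them. Syn1 (0.89) adjoins Cfp (1.05), which encodes the complement factor properdin, on the X chromosome. Whether probes of neighbouring genes detect a shared transcript was not tested.

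**Figure D4:**
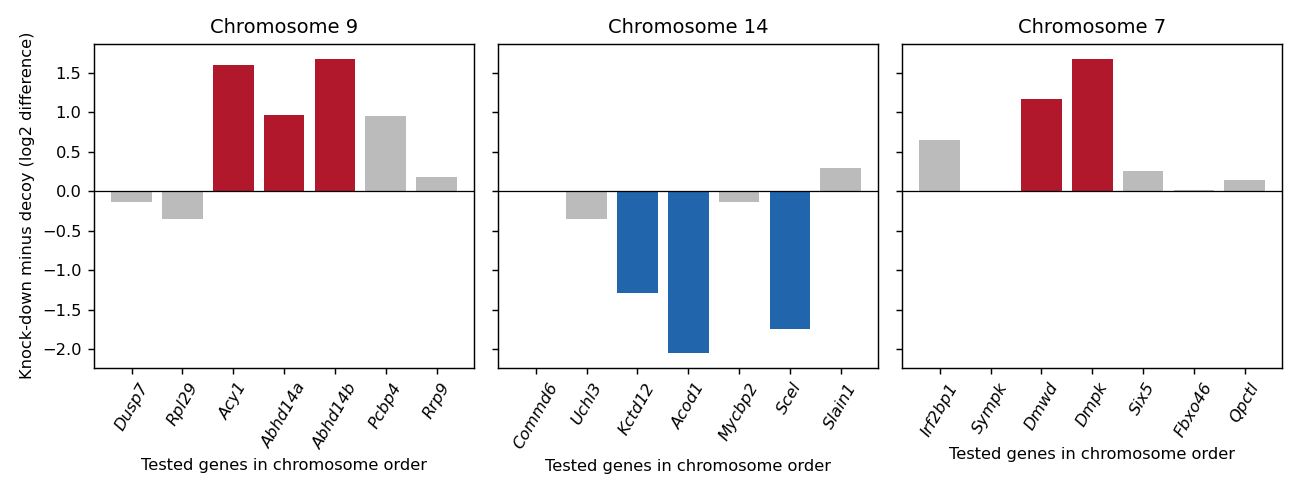
Knock-down minus decoy difference (log2, bars from 0) of tested genes in chromosome order around Abhd14a (chromosome 9), Acod1 (chromosome 14) and Dmpk (chromosome 7). Red bars are called higher, blue bars called lower and grey bars not called; the coloured bars stand beside neighbours that were not called.

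The control level, which the test did not use, fell in different places for different genes. Of the 81 features higher in the knock-down, control lay between both groups in 36, below both in 39 and above both in 6. Of the 128 lower in the knock-down it lay between in 46, above both in 68 and below both in 14. Over all features tested control lay between both groups in 14.9%, above both in 30.8% and below both in 54.3%. Among genes higher in the knock-down, the decoy arrays alone overlapped control in 32 features (39.5%), among them Emp2, Itgb7, Dmpk, Abhd14b and Cxcl16, and the knock-down arrays alone in 8 (9.88%), among them Axl and Fos. Among those lower, the decoy arrays alone overlapped control in 24 (18.8%), among them Tmem176b, Acod1, Panx1 and Cx3cr1, and the knock-down arrays alone in 16 (12.5%), among them Scel, Ccl3 and Slc7a11. In 41 of the 81 (50.6%) and 88 of the 128 (68.8%), neither group overlapped control. Over all features tested the decoy arrays alone overlapped control in 16.6%, the knock-down arrays alone in 12% and neither in 42.6%. These places are descriptions without a test. The control arrays had a higher upper quartile of raw signal and more probes above background than the knock-down and decoy arrays. What this contributes to the places was not tested.

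The called features were not equally robust. Of the 209, 51 were called again with each of the 6 arrays left out in turn. Under 16 of the 17 alternatives run, all except scaling to a common median, 42 were called, 16 higher and 26 lower. They include 8 of the 10 named rises (all but Acot1 and Neo1) and 10 of the 10 named falls.

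**Figure D5:**
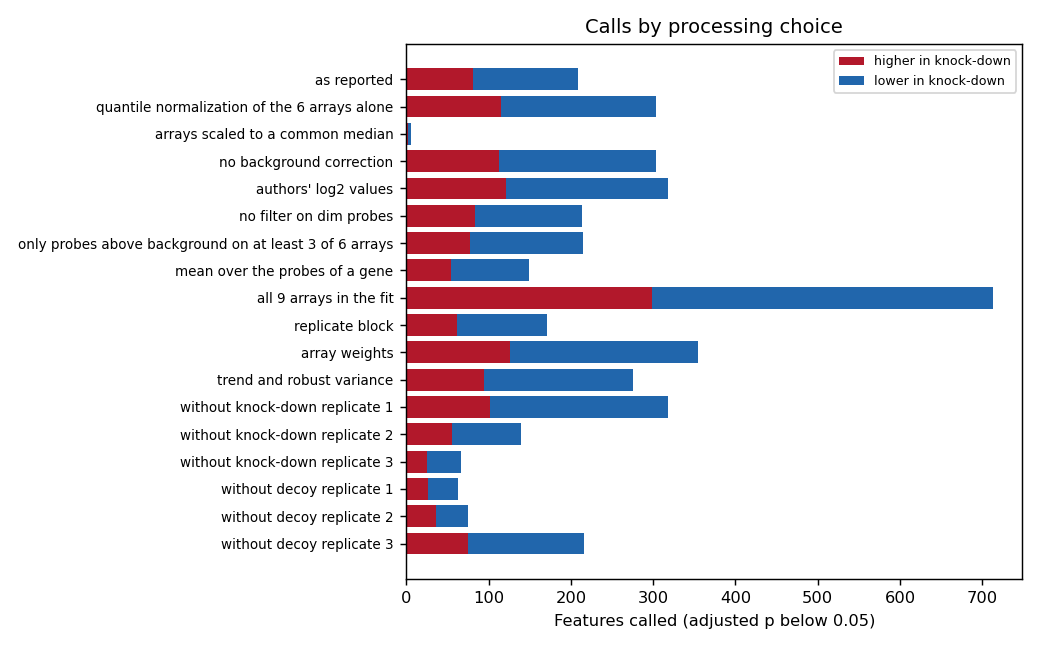
Number of features called at a limma adjusted p below 0.05 (x axis) as reported and under each of the 17 alternatives, split into features higher (red) and lower (blue) in the knock-down. The count is 209 as reported, 6 with arrays scaled to a common median and 713 with all 9 arrays in the fit.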

How the data were processed

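Illumina mouse whole-genome bead arrays measured RNA of 3 knock-down, 3 decoy and 3 control samples of RAW264.7 cells, grouped by title. The authors deposited raw probe intensity as whole numbers, without detection p-values. They also deposited log2 values processed by them (array medians 7.30 in each of the 9 arrays), by a normalization method not given in the sources used here. Per the submitters' processing notes R 2.9.1 was used. The raw table ends in 2042 blank rows, which were dropped.

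From the raw intensities, normexp background correction (offset 50), log2 and quantile normalization of the 9 arrays were computed with limma 3.58.1 under R 4.3.3. Probes entered the tests if above their array's median on at least 3 of the 6 knock-down and decoy arrays (22620 of 45281). Symbols came from the platform annotation, with 1 symbol for 34885 probes, several for 18 and none for 10378. Each gene took the value of the kept probe that was brightest over the 6 arrays, and every probe lacking a single symbol was a feature of its own, which gave 15992 features, 12135 of them genes. Group means were fitted to the 6 arrays with lmFit and eBayes (two-sided), and an adjusted p below 0.05 was a call. The fold is that of normalized log2 means. The background limit of an array was 3 SD, estimated from signals under the mode, over the mode of its log2 signals, and a probe counted as saturated from 60000 units. Where no array of the dimmer group was above background, "at least" sets the brighter mean against a floor, which on each array is the dimmest signal past the background limit, or the probe itself if brighter. The number of arrays limits the precision.

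Named are Nfat5, the 10 largest differences in each direction among called genes, genes with every kept probe called alike, and up to 4 called members of each of 33 gene lists. Clone-type names were counted only. The members and lists were chosen with earlier results of these data known, and the genes of the closing observations after their values were seen. The lists are not exhaustive, so each count covers listed members only. On simulated data with 50 of 15992 features changed per fold, 22% of 1.5-fold, 96% of 2-fold and 100% of 4-fold changes were recovered, with 8 false calls in all. The simulated noise was normal and independent between features, without array effects, so these rates may not hold for the real arrays. Alternatives covered scaling, background correction, the authors' log2 values, the filter, the probe rule, the arrays in the fit, a replicate block, array weights, the variance model and each array left out. Promoters were read from the RefSeq table of build GRCm38.p6. That table and the RefSeq gene order were used without other coordinates.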

Additional observations from a re-analysis of the deposited data

How the results depend on the processing

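Of the 209 called features, each one tested kept its direction under every alternative that used all 6 arrays, and the number called ranged from 6 to 713. It fell to 6 (2 higher, 4 lower) with arrays scaled to a common median, and single probes called fell from 185 to 2. It rose to 713 (299 higher, 414 lower) with all 9 arrays in the fit, where Nfat5 at -0.54 was called. With the authors' log2 values it was 318 (197 lower), and 199 of the 209 were called again. Array weights gave 355 (126 higher, 229 lower). Quantile normalization of the 6 arrays alone and no background correction gave 304 each. Leaving out each array in turn gave 63 to 318 called, 25 to 102 higher and 37 to 216 lower, with knock-down replicate 2 the array without which 84 were lower and 56 higher. With the replicate number as a block 171 were called, 158 of the 209 among them. The labels do not say whether same-numbered samples were paired. Deviations from the group means of same-numbered arrays correlated at 0.327, -0.247 and -0.109, and those of knock-down replicate 2 and decoy replicate 3 at 0.42. With 3 arrays per group these values cannot settle whether samples were paired. The cause of the changes in the number called was not tested. Dim signal limits the rest: in 42 of the 209 features the dimmer group was not above background, and in 2 neither group was.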

Other observations

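The genes given here were called, lie outside the lists above and were picked after their values were seen; several are surface proteins of leukocytes. Lower in the knock-down were Cd52, a small glycosylated surface antigen (2.23-fold, limma adjusted p = 0.00294), Sema4a, a semaphorin (2.39-fold, adjusted p = 0.00393), Trem3, a receptor of the TREM family (1.95-fold, adjusted p = 0.0138), and the inhibitory receptors Lilrb4a (1.88-fold) and Cd33 (1.78-fold). Slamf9, of the SLAM family, was at least 1.32-fold higher in the decoy, with no knock-down array above background. The reverse was measured for Cxcr3, a chemokine receptor (2.14-fold higher in the knock-down, adjusted p = 0.00823), Sirpb1a, a signal-regulatory protein (2.13-fold, adjusted p = 0.00367), Icam4, an adhesion molecule (2.05-fold), and Cd80, a co-stimulatory ligand (at least 1.37-fold). Pdgfa, a platelet-derived growth factor chain, was 2.18-fold lower in the knock-down. Further probes of Cd52 (-0.35 in log2), Cd33 (-0.46 and -0.36) and Cd80 (0.21) were not called.

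Other called genes, likewise picked, act inside the cell or in its membranes. Sorl1, a sorting receptor (2.09-fold), and Fabp3, a fatty acid binding protein (at least 1.56-fold higher in the decoy), were lower in the knock-down. Higher in it were Ctsf, a lysosomal cysteine protease (2.25-fold, adjusted p = 0.00282), Vkorc1, which recycles vitamin K (2.26-fold, adjusted p = 0.0029, with 0.78 and 0.54 in log2 on its 2 other probes, neither called), and Kdelr3, a retrieval receptor of the endoplasmic reticulum (at least 1.56-fold). Gpr176, an orphan receptor, was at least 2.06-fold higher in the decoy (adjusted p = 0.000522) and was 1 of the 6 features called with arrays scaled to a common median.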
